A study of Mus musculus with 1047 samples.

Results

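The genes described here are 35 mouse lysosome genes other than cathepsins, out of 18081 gene symbols listed for aged microglia. They were taken by name from a list that was chosen with earlier results of these data known. They are 7 lysosomal membrane proteins, 3 lumenal lipid-transfer and activator proteins, 14 hydrolases, the transcription factor Tfeb and 10 parts of the V-ATPase. All 35 were listed in the aged Smart-seq2 and 10x data, and 33 at postnatal day 14, where Gla and Sgsh were not analysed. Of the 35, all passed the filter on low counts in the tissue comparisons and in white matter, and 34 passed it in grey matter and in prefrontal cortex, where Gla did not.

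Lysosomes are acidic compartments in which enzymes break down proteins, glycans and lipids that arrive by phagocytosis, endocytosis or autophagy. The V-ATPase, a rotary proton pump with a membrane part called V0 and a cytosolic part called V1, keeps the lumen acidic. Microglia, the macrophages of the brain, use this system to degrade synaptic material, dying cells and amyloid, and in white matter also lipid-rich myelin debris. Inherited loss of many of these genes causes a lysosomal storage disease.

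The membrane proteins are Lamp1 and Lamp2, the main lysosomal membrane glycoproteins, Cd68, a macrophage glycoprotein of the same family, Scarb2, which carries beta-glucocerebrosidase to the lysosome, Laptm5, a membrane protein of haematopoietic cells, Npc1, a cholesterol exporter, and Mcoln1, a calcium channel. The lumenal proteins are Npc2, which hands cholesterol to Npc1, Psap, the precursor of the saposins that help to degrade sphingolipids, and Grn, progranulin. The hydrolases include Hexa, Glb1, Neu1, Gla and Man2b1, which remove sugars from glycolipids or glycoproteins, the ceramidase Asah1, Gusb, Galns, Naglu and Sgsh, which act on glycosaminoglycans, Gaa, which acts on glycogen, and the proteases Tpp1 and Lgmn. The remaining hydrolase, Ppt1, removes fatty acids from proteins. Tfeb activates lysosome genes. The V0 subunits are Atp6v0b, Atp6v0c, Atp6v0d1 and Atp6v0e, the V1 subunits Atp6v1a, Atp6v1b2, Atp6v1e1 and Atp6v1h, and the accessory proteins Atp6ap1 and Atp6ap2.

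Tfeb and its relatives bind the letters TCACGTG, which contain CACGTG. In the 250 bases before the RefSeq start (GRCm38.p6), TCACGTG on either strand was present in 10 of the 30 members with a sequence, or 33.3%, against 968 of 27025 symbols, or 3.58%. The 10 were Atp6v0b, Atp6v1a, Gaa, Gla, Glb1, Lamp1, Lgmn, Mcoln1, Naglu and Sgsh. CACGTG was present in 33.3% of the members and 6.86% of all symbols, and the palindrome TCACGTGA in 10.0% (Atp6v1a, Gla and Mcoln1) and 0.907%. A match is a description of these letters and not a binding site. Windows of 120 bases are printed for Gla, which had the largest ratio in the 10x comparison, Glb1, a hydrolase higher in white matter in every WT animal, and Lamp1, higher in white matter in every animal of both genotypes. Capitals mark TCACGTG on either strand, so that CACGTGA is the same letters on the other strand. The windows lie at chrX:134601136-134601255 on the minus strand for Gla, chr9:114400956-114401075 on the plus strand for Glb1 and chr8:13159041-13159160 on the plus strand for Lamp1.
Gla: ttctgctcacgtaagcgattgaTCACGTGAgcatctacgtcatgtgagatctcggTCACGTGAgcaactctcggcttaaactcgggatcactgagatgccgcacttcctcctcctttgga
Glb1: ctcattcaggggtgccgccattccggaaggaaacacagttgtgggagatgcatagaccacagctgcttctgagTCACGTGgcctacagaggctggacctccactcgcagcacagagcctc
Lamp1: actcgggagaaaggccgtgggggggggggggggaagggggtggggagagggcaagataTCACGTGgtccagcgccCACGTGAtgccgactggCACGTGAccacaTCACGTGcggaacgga
The Gla window held TCACGTGA at 2 places, the Glb1 window 1 match, and the Lamp1 window 4 matches.

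Aged microglia were measured with Smart-seq2, a full-length plate method with 1 cell per well and no molecular identifiers. The WT animals A1 to A7 were C57BL/6J of 18 to 19 months, male except A1, and A1 gave grey matter only. The animals labelled Trem2ko, for the microglial lipid receptor Trem2, were A8 to A12 at 18 or 20 months, with A8 and A12 labelled male and A9, A10 and A11 female. Grey matter was frontal cortex, and white matter was a dissection of corpus callosum, optic tract and medial lemniscus; all aged tissue was dissociated with 45 uM actinomycin D, and the sort was for CD45 and CD11b. A separate set held prefrontal cortex microglia of female 5xFAD mice of 7 months, a transgenic line driven by the neuronal Thy1 promoter that deposits amyloid, and of female WT mice of 6 and 7 months. At postnatal day 14, cells positive for GFP came from prefrontal cortex of 3 pooled CX3CR1-GFP mice of both sexes, prepared with or without actinomycin D, and the labels do not say which cell had it. The 10x droplet libraries came from pools of males. At 24 months, 3 are titled WT grey matter and 2 are titled WT white matter, and at 18 months 4 are white matter of ApoeKO (B6.129P2-Apoetm1Unc/J), which lacks apolipoprotein E. Myelin was removed before 10x, and no sort was named. The batch 3 library titled WT white matter carries the genotype ApoeKO in another label.

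Summed reads of 1 animal in 1 tissue made a library, with animals as replicates. These libraries held 570371 to 59659664 reads from at least 5 cells each, and values are reads scaled to library size (CPM) after TMM scaling within each fit. Cells had a median of 77836 reads in WT grey, 89523 in WT white, 256055 in Trem2ko grey and 292723 in Trem2ko white matter. The Trem2ko medians rest on A11 and A12, at 472188 to 562801 reads, while A8 to A10 were at 74863.5 to 128009. Trem2 itself was at 1799 to 3977 unscaled CPM in WT white and 2145 to 5216 in WT grey matter. In Trem2ko it was at 280.8 to 708.2 in white and 345.9 to 605.8 in grey matter for A8 to A11, but at 2034 and 1455 in A12, so that A12 white matter lies inside the WT range. In A8, labelled male, Xist was at 53.1 and 32.8 unscaled CPM in grey and white matter, and in A10, labelled female, at 0.0 and 0.6, against the labels of both animals. All 12 microglia markers were detected in every library (48990 to 75660 CPM summed), and 6 listed border macrophage markers summed to at most 68.08 CPM in aged libraries. Genotype and plate cannot be told apart, since each plate held 1 genotype. Of the plates shared by A8, A9 and A10, those of 74 and 61 cells held 1 tissue only and that of 69 cells held both. On the plates with 1 tissue, tissue and plate cannot be told apart either.

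In aged WT mice, 25 of the 35 genes had a higher fitted level in white than in grey matter and 10 a lower one, with a median log2 fold change of 0.21 against 0.11 over all 11433 genes tested. Without A3 these medians were 0.11 and 0.14, so the members then lay below all genes. No member passed the test (edgeR's quasi-likelihood test with the animal as a block, Benjamini-Hochberg adjusted over all genes), in a fit in which 0.035% of all genes were called higher and 0% lower. The smallest adjusted p was 0.676. At an unadjusted p under 0.05, 7 members were higher and 0 lower, against 3.25% and 1.85% of all genes. These were Lamp1, Npc2, Psap, Grn, Glb1, Galns and Atp6v1b2. DESeq2, run as an alternative, called 3 of them, Glb1 (adjusted p = 0.00282), Atp6v1b2 (0.0211) and Galns (0.0466), where it called 1.46% of all genes higher and 1.07% lower. In these sums over cells, a smaller share of cells with a gene and a lower level per cell cannot be told apart. Summed levels of 8 activated microglia genes were 9211 to 87040 CPM in WT white and 398.2 to 3361 in WT grey matter, and their part in these differences was not tested.

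Lamp1 (chr8:13159161-13175338) had a lowest, median and highest level of 328.7, 1122 and 1350 CPM in WT grey matter and 947.5, 1432 and 1802 CPM in white matter. It was higher in white matter in all 6 animals, although the groups overlap, with a log2 fold change of 0.51 ± 0.18 (SE), or 1.43-fold (edgeR adjusted p = 0.794). The grey matter library of A6, with 7 cells, gave the lowest value, and without A6 the log2 fold change was 0.31 (edgeR adjusted p = 0.88). Lamp2 was level in comparison, at 179.4 ± 65.3 CPM (SD, n = 6) in grey and 194.7 ± 45.1 CPM in white matter. Of the other membrane proteins, Scarb2 was at 114.6 ± 30.1 and 192.7 ± 79.3 CPM and Laptm5 at 6294 ± 1039 and 6214 ± 816 CPM (SD, n = 6) in grey and white matter. The log2 fold change of Laptm5 was -0.01 ± 0.11 (SE), and it was higher in white matter in 3 of 6 animals.

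The 3 lumenal proteins had positive log2 fold changes of 0.35 to 0.45. Psap (chr10:60277627-60302597) had a lowest, median and highest level of 1213, 2586 and 3087 CPM in WT grey and 2298, 3170 and 3621 CPM in white matter. It was higher in white matter in 5 of 6 animals, at 1.27-fold (log2 0.35 ± 0.13, edgeR adjusted p = 0.864). For Npc2 (chr12:84754562-84773152) these levels were 510.9, 802 and 1349 CPM in grey and 713.6, 1250 and 1867 CPM in white matter, higher in 4 of 6 animals (log2 0.45 ± 0.19, adjusted p = 0.931 in edgeR). Both genes overlapped between the tissues. Grn was at 2765 ± 789 CPM in grey and 3590 ± 566 CPM in white matter (SD, n = 6).

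Among the hydrolases, 11 of 14 had a positive fitted change, with a median log2 of 0.25. Glb1 (chr9:114401076-114474898), beta-galactosidase, had a lowest, median and highest level of 0, 46.3 and 98.61 CPM in grey and 89.2, 199.8 and 280.1 CPM in white matter. Every animal was higher in white matter, and the groups overlapped through A3 and A7 (6.17-fold, log2 2.63 ± 0.80, edgeR adjusted p = 0.676). Without A6, whose grey library had no Glb1 read, the log2 change was 2.01 (edgeR adjusted p = 0.679). Galns, which acts on keratan sulphate, was at 0, 5.49 and 56.27 CPM (lowest, median, highest) in grey and 23.22, 63.2 and 123.4 CPM in white matter, with 2 grey libraries at 0. Galns was higher in white matter in 5 of 6 animals, with A5 the exception. Gla was at most 0.39 CPM in grey matter, and in white matter it lay between 0 and 70.87 CPM, with 2 of 6 animals at 0. Lgmn, at 8885 ± 2223 and 8196 ± 909 CPM (SD, n = 6), was the most abundant member and was higher in white matter in 2 of 6 animals.

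The V-ATPase parts did not move as 1 group. Atp6v1b2 (chr8:69088646-69113711), the B subunit of the V1 head, was at 10.55, 125.8 and 192 CPM (lowest, median, highest) in grey and 185.9, 223.8 and 361.1 CPM in white matter. It was higher in white matter in every animal, with the groups overlapping only through grey matter of A7 (2.81-fold, log2 1.49 ± 0.45, edgeR adjusted p = 0.676). Without A6 the log2 change was 1.08 (edgeR adjusted p = 0.679). Atp6v1e1, a stalk subunit of the same V1 part, had the opposite sign, at 102.1 ± 75.4 CPM in grey and 43.5 ± 26.2 CPM in white matter (SD, n = 6), higher in white matter in 1 of 6 animals. The 2 accessory proteins had log2 fold changes of -0.69 (Atp6ap1) and -0.70 (Atp6ap2). The 4 V0 subunits had a median log2 change of 0.13.

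The remaining members differed in level far more between genes than between groups. Over the 4 aged groups, group means were 1721 to 1981 CPM for Hexa, 1489 to 1859 for Cd68, 630 to 785.3 for Gusb and 624.3 to 799.8 for Atp6v0b. Those of Neu1 were 105.2 to 217.4 CPM and of Gaa 80.64 to 188.4, and Asah1 was at 271.6 ± 65.6 CPM in WT white matter (SD, n = 6). Members under 100 CPM in every group were Npc1, Mcoln1, Sgsh, Gla, Galns, Atp6v0d1, Atp6v1a and Atp6v1h, and the SD of Gla exceeded its mean in all 4 groups. Npc1, for example, was at 42.23 ± 33.7 CPM in WT grey and 40.4 ± 35.4 CPM in WT white matter (SD, n = 6). Tfeb, itself a low gene, was at 146.5 ± 185 CPM in WT grey and 115.5 ± 64.2 CPM in WT white matter (SD, n = 6), and at 56.02 ± 40.6 and 71.99 ± 45.5 CPM in Trem2ko grey and white matter (n = 5). The range of Tfeb over WT grey matter animals, 9.79 to 511.5 CPM, held all 4 of its group means.

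**Figure D1:**
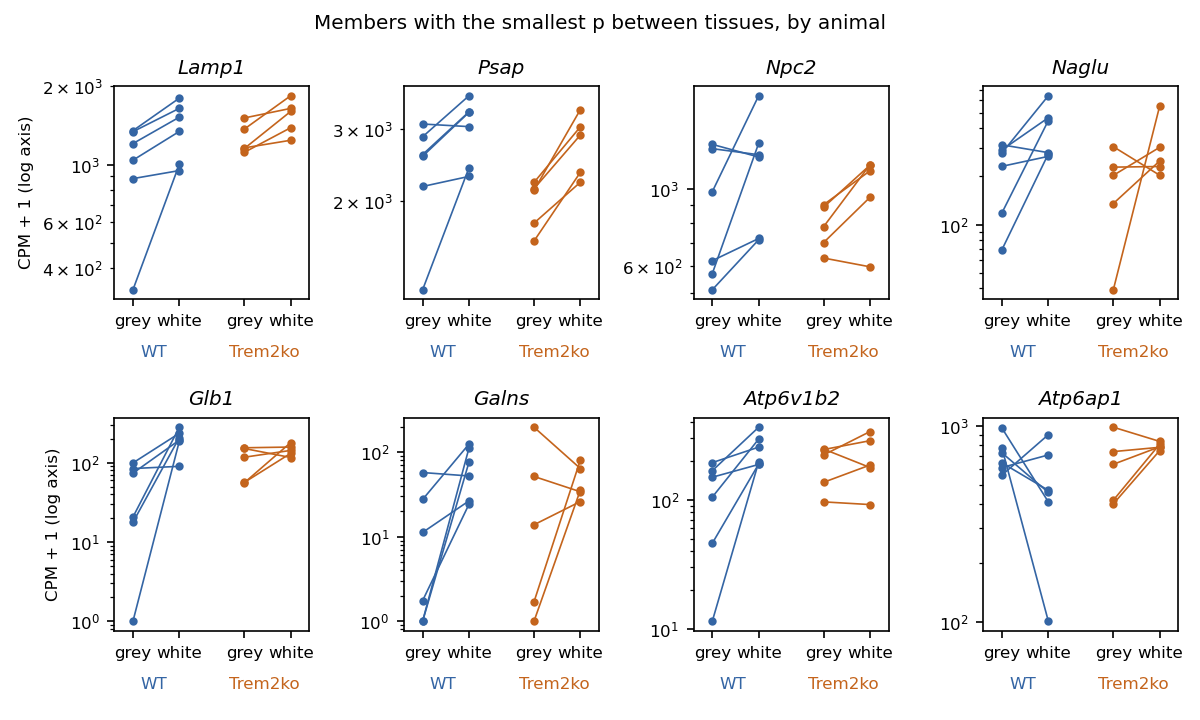
Level of 8 members in grey and white matter by animal, in CPM + 1 on a log axis, with WT and Trem2ko animals in separate colours and a line joining the tissues of 1 animal. In WT, Lamp1, Glb1 and Atp6v1b2 lines go up from grey to white matter in all 6 animals, and Atp6ap1 lines go down in 4 of 6.

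In mice labelled Trem2ko, 21 genes were higher and 14 lower in white than in grey matter, with a median log2 change of 0.10 against -0.0076 over all genes. No member and no gene was called in either direction (0%, edgeR), while DESeq2 called 31 genes higher and 30 lower and no member. At an unadjusted p under 0.05, 1 member was higher and 0 lower, against 1.36% and 1.4% of all genes. That member was Psap, at 2144, 2221, 2124, 1766 and 1596 CPM in grey matter of A8 to A12 and 2902, 3039, 3349, 2224 and 2352 CPM in their white matter. Psap was higher in white matter in all 5 animals, 1.40-fold (log2 0.49 ± 0.14, adjusted p = 0.999 in edgeR), and the lowest white value, 2224 CPM in A11, lay just above the highest grey value, 2221 CPM in A9. Activated microglia genes summed to 364.6 to 723.2 CPM in Trem2ko grey and 6926 to 12730 CPM in Trem2ko white matter, and their part was not tested. With only plates holding both tissues, 19 members were higher and 16 lower in Trem2ko white matter, and 8 had another sign than in the main fit.

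Lamp1 was at 1159, 1152, 1114, 1369 and 1511 CPM in grey and 1240, 1602, 1386, 1841 and 1645 CPM in white matter of A8 to A12. The gene was again higher in white matter in every animal, with overlapping groups (log2 0.29 ± 0.19, edgeR adjusted p = 0.999). Npc2 was at 631.5, 779, 700.5, 902 and 887.2 CPM in grey and 595.5, 1178, 948, 1131 and 1175 CPM in white matter, with A8 the 1 animal that was lower in white matter. Naglu (chr11:101070012-101077672), which removes N-acetylglucosamine from heparan sulphate, was at 227.8, 38.01, 202.2, 306.4 and 134.3 CPM in grey and 229.9, 552.9, 303.7, 202.5 and 249.3 CPM in white matter. Its log2 change of 0.82 ± 0.53 rested on A9 and was 0.22 without that animal. Of the 7 membrane proteins only Lamp1 had a positive fitted change, and their median was -0.19.

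Members with the same sign in every animal were few in both genotypes. In WT, Lamp1, Glb1 and Atp6v1b2 were higher in white matter in all 6 animals, or 8.57% of the members, against 1.64% of all genes tested, and 0 were lower in all 6, against 1.05%. In Trem2ko, Lamp1, Psap and Tfeb were higher in all 5 animals, 8.57% against 3.31%, and Gusb and Atp6v0b were lower, 5.71% against 3.18%. Per animal, the median difference over the members was -0.25, 0.37, 0.58, 0.21, 0.08 and 0.34 on the log2(CPM + 1) scale in A2 to A7, and -0.15, 0.09, -0.03, 0.03 and 0.30 in A8 to A12. The median over all genes lay between 0 and 0.16 in these 11 animals, so A2, A8 and A10 were below it.

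**Figure D2:**
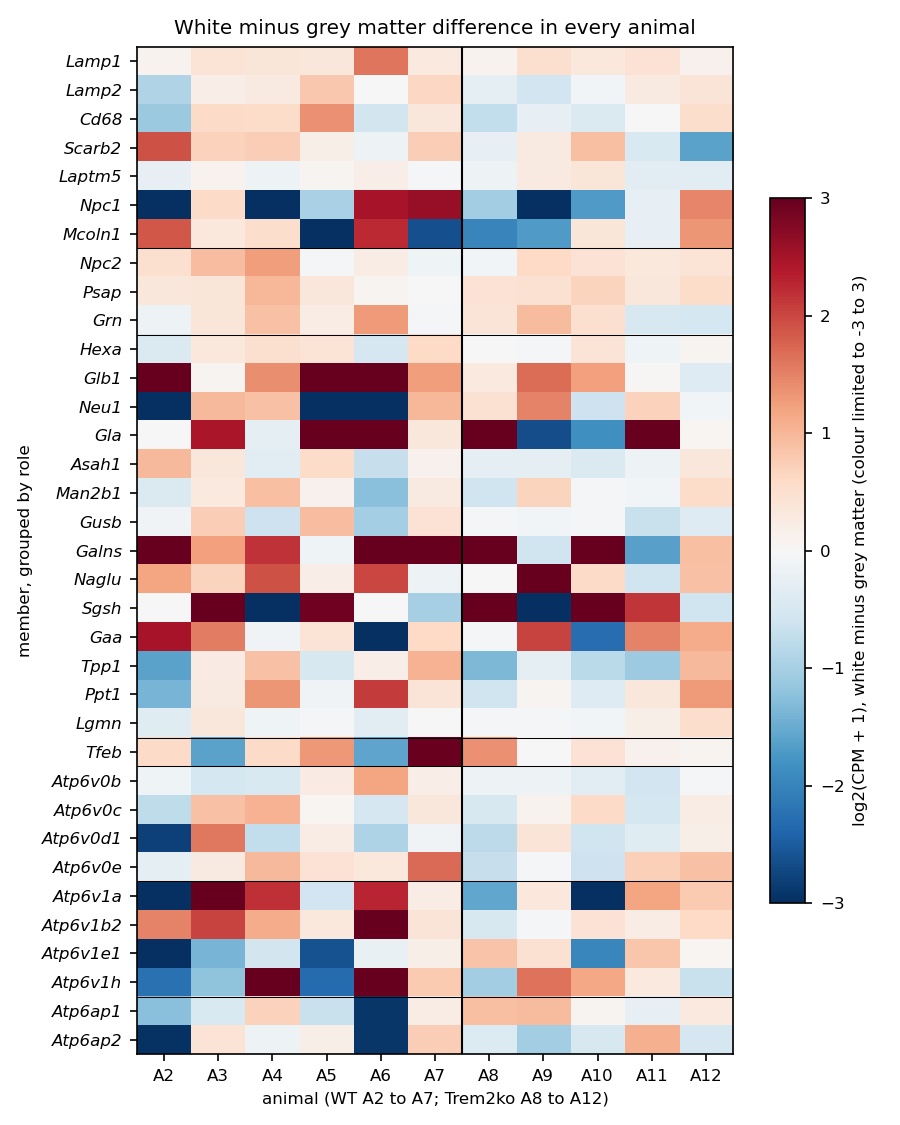
Difference between white and grey matter of each animal, in log2(CPM + 1), for the 35 members by role and the 6 WT and 5 Trem2ko animals, with colours limited to -3 and 3. Red is higher in white matter and blue lower; the row of Lamp1 is red in all 11 animals, while Galns, Gla, Sgsh and Atp6v1h switch sign between animals.

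The tissue difference itself was compared between the genotypes as an interaction term of the same fit. It was lower in Trem2ko for 24 members and higher for 11, with a median log2 of -0.23 against -0.11 over all genes. Without A4 these were -0.10 and -0.14, without A8 -0.12 and -0.16, and without A11 -0.12 for both, so the members did not stay below all genes. No member or gene passed (edgeR, 0% of all genes, against 14 higher and 18 lower genes and no member by DESeq2), and at an unadjusted p under 0.05 the counts were 1 higher and 0 lower, against 0.98% and 1.49% of all genes. All 7 membrane proteins had a negative value, of -0.03 to -0.90. The member with the smallest p was Atp6ap1 (chrX:74297097-74304721), a glycoprotein needed for V-ATPase assembly. It was at 559.1, 685.9 and 970.8 CPM (lowest, median and highest) in WT grey and 100.1, 462 and 899 CPM in WT white matter, against 398.9, 416.4, 736.9, 981 and 635 CPM in grey and 746.1, 804.6, 775.1, 830.3 and 779.6 CPM in white matter of A8 to A12. The Trem2ko white libraries lay close together, while the WT white libraries were spread, with A6 lowest (log2 1.09 ± 0.51, edgeR adjusted p = 1, and 0.69 without A6). For Atp6v1b2, which was at 244.5, 95.16, 135.2, 242.5 and 220.3 CPM in grey and 176, 90.68, 184, 284 and 334.3 CPM in white matter of A8 to A12, the interaction was -1.34 ± 0.64 (edgeR adjusted p = 1). For Glb1 it was -2.06 ± 1.09, and -1.45 without A6 (edgeR adjusted p = 1 for the full fit). Glb1 was at 116.5, 54.93, 55.5, 153.6 and 150.4 CPM in Trem2ko grey and 142.2, 179.1, 130.8, 156.9 and 115.5 CPM in Trem2ko white matter. Of the grey values, 3 of 5 lay above every WT grey value, and all 5 white values lay below 5 of the 6 WT white values. These comparisons share libraries with the genotype comparisons that follow.

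In white matter, 15 members were higher and 20 lower in Trem2ko than in WT, with a median log2 of -0.04 against 0.08 over all genes. Scaled by library size only, 20 were higher and 15 lower, and with DESeq2-type (RLE) scaling 12 and 23. With only animals labelled male, A8 and A12 for Trem2ko, the numbers were 19 and 16. Xist in A8 was against its label, and Trem2 in A12 white matter lay inside the WT range. The split of the members therefore does not hold a direction. None was called (edgeR, 0% of all genes, with 3 higher and 11 lower genes and no member by DESeq2), and at an unadjusted p under 0.05, 2 were higher and 0 lower, against 1.73% and 1.56% of all genes. The 2 were Lgmn and Atp6v1e1. Lgmn (chr12:102394084-102439813), the asparaginyl endopeptidase, was at 10070, 8994, 10050, 11570 and 11550 CPM in A8 to A12, and had a lowest, median and highest level of 7192, 8050 and 9864 CPM in WT. All Trem2ko values except that of A9 lay above every WT value (log2 0.35 ± 0.12, edgeR adjusted p = 0.999). Atp6v1e1 was at 112.2, 184.2, 36.01, 150.7 and 136.5 CPM in A8 to A12 and at 2.064, 48.92 and 69.54 CPM (lowest, median, highest) in WT, with A10 inside the WT range (log2 1.52 ± 0.67, edgeR adjusted p = 0.999). Ppt1 was at 227.9, 253.8, 233.6, 405.9 and 341.8 CPM against 66.03, 209 and 247.4 CPM in WT, and Man2b1 at 956.6, 1397, 1179, 1010 and 1421 CPM against 405.5, 1655 and 3205 CPM. The groups of these genes overlap, and no member had groups that did not overlap in white matter. The share of all genes without overlap was not counted here, so this is a description only. In white matter, median reads per cell were 514959 in A11 and 561292 in A12, but 74863.5 to 113909.5 in A8 to A10. WT animals were at 61774 to 128757. Markers of another cell type were carried by 26.1% of Trem2ko and 13.2% of WT white matter cells. Such cells were 22 of 95 in A11 and 38 of 99 in A12, against 7 of 33, 5 of 30 and 5 of 34 in A8 to A10. The WT animals here were labelled male, while A9, A10 and A11 were labelled female. The part of depth, other cells and sex in these differences was not tested.

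In grey matter, with A1 added, 21 of 34 members were higher and 13 lower in Trem2ko, with a median log2 of 0.08 against 0.07 over all genes. With only animals labelled male, again A8 and A12 for Trem2ko, 19 were higher and 15 lower. With RLE scaling in place of TMM, 16 were higher and 18 lower, so this split does not hold a direction. No member was called (edgeR, with 0% of all genes called higher and 0.0121% lower, and DESeq2 with 5 higher and 4 lower genes and no member). At an unadjusted p under 0.05, 1 was higher and 2 lower, against 1.34% and 1.19% of all genes. No member had groups that did not overlap, and the share of all genes without overlap was not counted here either. Psap was at 2219, 2299, 2230, 1691 and 1535 CPM in A8 to A12 and at 1268, 2804 and 5900 CPM (lowest, median, highest) in the 7 WT animals, where A1 was highest. Its log2 change of -0.62 ± 0.27 (edgeR adjusted p = 1) ranged from -0.77 to -0.38 with 1 animal left out, and turned to 1.23 when libraries of fewer than 5 cells were added. Man2b1, an alpha-mannosidase, was at 1481, 939.4, 1297, 1112 and 1027 CPM against 803.4, 1796 and 2830 CPM in WT (log2 -0.59 ± 0.27). Tpp1, a tripeptidyl peptidase, was at 883.4, 584, 536.4, 653.2 and 251.3 CPM against 201.7, 338 and 548.1 CPM in WT, with 3 Trem2ko animals above the WT range and A12 near its low end (log2 0.68 ± 0.32). Ppt1 was at 353.1, 255, 331.2, 333.8 and 149.6 CPM against 62.02, 176.3 and 233.9 CPM in WT, again with A12 lowest (log2 0.82 ± 0.39, edgeR adjusted p = 1 for all these genes). Markers of another cell type were carried by 4 of 28, 6 of 35, 5 of 44, 20 of 75 and 40 of 83 grey matter cells of A8 to A12. In WT grey matter 16.6% of cells carried them, and their part was not tested.

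In prefrontal cortex, 26 of 34 members were higher and 8 lower in the 4 5xFAD animals than in the 2 WT animals, with a median log2 of 0.44 against 0.13 over all genes. This order rests on the WT animal A173: without it the median was 0.45 for the members and 0.81 for all genes. None passed (edgeR, 0% of all genes, with 117 higher and 37 lower genes and no member by DESeq2), and at an unadjusted p under 0.05, 2 were higher and 0 lower, against 1.82% and 1.44% of all genes. All 5xFAD animals lay above both WT animals for 5 of 34 members, Laptm5, Naglu, Ppt1, Atp6v0c and Atp6ap1, or 14.7%, against 4.25% of all genes, and 0 members lay wholly below, against 6.71%. Activated microglia genes summed to 658.3, 35510, 72680 and 49180 CPM in the 5xFAD animals A91, A93, A99 and A100, but also to 33720 CPM in the WT animal A132 and 2718 CPM in A173, and their part was not tested. Markers of another cell type were carried by 0 of 7, 2 of 18, 5 of 23 and 2 of 24 cells of these 5xFAD animals. In the WT animals A132 and A173 such cells were 2 of 14 and 10 of 27, and their part was not tested.

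Laptm5 (chr4:130913125-130936141) was at 5700, 4622, 6414 and 5233 CPM in A91, A93, A99 and A100, and at 2695 and 4116 CPM in the WT animals A132 and A173. The groups did not overlap (1.61-fold, log2 0.69 ± 0.28, edgeR adjusted p = 1), and the log2 change was 0.41 without A132 and 1.03 without A173. Npc2 was at 837, 1549, 1879 and 1211 CPM against 915.3 and 436.8 CPM, so that A91 lay between the WT animals (log2 1.02 ± 0.45, edgeR adjusted p = 1, with 0.57 without A173 and 1.64 without A132). Naglu was at 383.4, 598.1, 421.3 and 685.7 CPM against 288.3 and 251.3 CPM (log2 0.95 ± 0.45). Atp6ap1 was at 559.4, 954.3, 701.4 and 556.3 CPM against 415.6 and 428.8 CPM (log2 0.71 ± 0.41, edgeR adjusted p = 1 for both). These 2 genes had every 5xFAD animal above both WT animals. Atp6v0c, which forms the proton-carrying ring, was at 141.5, 191, 280.2 and 324.5 CPM against 125.9 and 116.8 CPM. Its reads can be shared with near-identical pseudogene copies, so its level is uncertain. By role, 6 of 7 membrane proteins, 9 of 13 hydrolases and 4 of 4 V0 subunits had positive values, with medians of 0.46, 0.42 and 0.56.

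**Figure D3:**
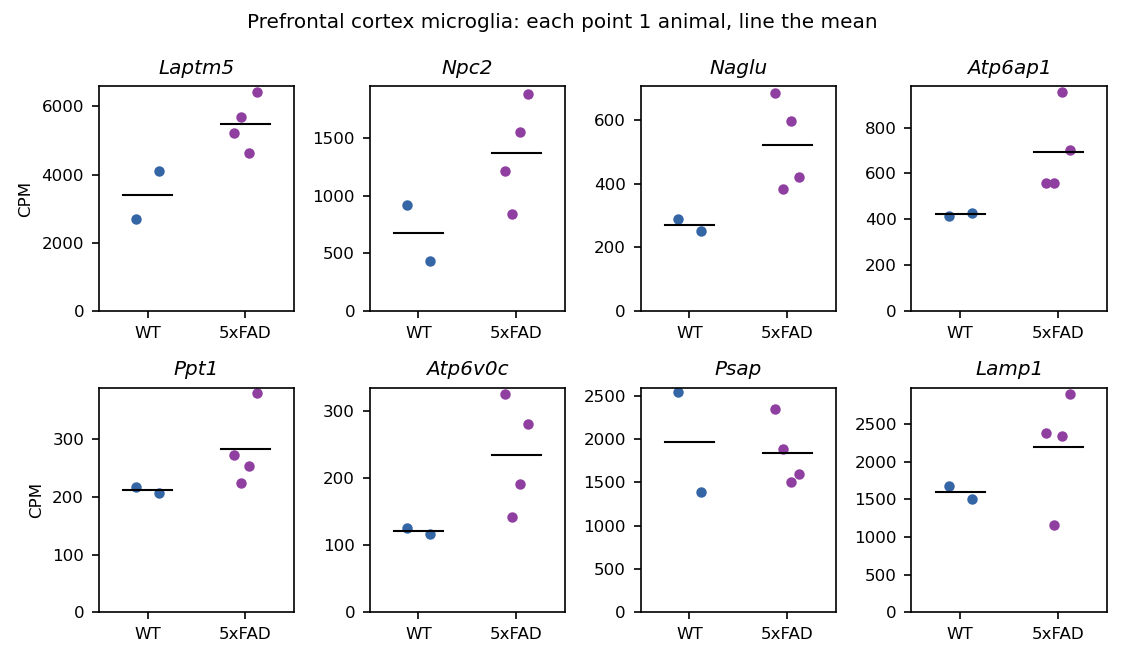
Level of 8 members in prefrontal cortex by animal, in CPM, with a point for each of 4 5xFAD and 2 WT animals and a line at the group mean. Laptm5, Naglu, Atp6ap1, Ppt1 and Atp6v0c points do not overlap between the groups, while those of Npc2, Psap and Lamp1 do.

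Levels of different genes were compared per kilobase of exon. Lgmn was first in all 6 groups of aged and prefrontal cortex libraries, at 3825 ± 957 CPM per kb in WT grey (SD, n = 6), 3528 ± 391 in WT white (n = 6), 4378 ± 392 in Trem2ko grey (n = 5) and 4731 ± 679 in Trem2ko white matter (n = 5). It was at 2538 ± 272 in 5xFAD (n = 4) and 2899 ± 570 CPM per kb in WT prefrontal cortex (SD, n = 2). Laptm5 and Cd68 were the next, in either order, in all 6 groups, and Gla and Sgsh were among the last 5 in the aged groups. At postnatal day 14, Lgmn (3464 CPM per kb), Laptm5 (1647), Grn (960.9), Cd68 (861.6) and Hexa (622.2) led and Atp6v0c was last at 5.54 CPM per kb, from 1 pool of mice and so with no replicate.

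In the pool of postnatal day 14, the most abundant members had reads in all cells, while the number of cells with reads varied among low members. Lgmn, Laptm5 and Grn had reads in 75 of 75 cells, at 8048, 6238 and 3338 CPM over the summed cells. Psap was at 1300 CPM with reads in 71 cells and Lamp1 at 1222 CPM in 74 cells. Glb1 was at 65.17 CPM with reads in 13 cells, and Galns at 15.77 CPM in 4 cells, but Atp6v0c at 18.75 CPM in 30 cells and Atp6v0d1 at 55.65 CPM in 36 cells. Cells were shallow, at a median of 42361 reads, and 33.3% of them carried markers of another cell type, so a cell without reads was not shown to lack the RNA.

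In the aged 10x data, 10765 of 21195 cells were microglia-like, by a rule that included at least 10 of 12 markers, with a median of 7572 UMIs. Cells carry 1 of 5 barcode endings, which the labels do not tie to samples, so there is no test between grey and white matter, and 41 barcodes occurred under more than 1 ending. Over the endings, Lgmn had a median of 2808 CPM, Laptm5 2106, Psap 2077, Lamp1 1197, Grn 997 and Npc2 907.4 CPM. Atp6v0c (5.03 CPM) and Gla (4.58 CPM) were lowest. Lgmn was thus first here too. Npc2 ranged from 873.8 to 1371 CPM and Gla from 4.12 to 18.5 CPM over the endings, while Asah1 ranged from 413.3 to 485.4 CPM.

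Microglia-like clusters were made without the 35 members and the cathepsins, and are named by their leading genes. The largest class, led by P2ry12, a receptor of resting microglia, held 6600 cells. Others were led by Spp1, Ccl4 and Lpl (1218 cells), by Slamf9, Ly86 and Rxrg (2074 cells, named Rxrg-led) and by interferon-response genes such as Ifit2 (465 cells). In the remaining microglia-like cells, led by other genes, microglia markers summed to 22530 CPM, against 43370 CPM in P2ry12-led cells. Their neutrophil, monocyte and neuron markers summed to 2782, 622.4 and 621.8 CPM. These remaining cells are part of the microglia-like levels by ending and by cell class. Of the Spp1-led cells, 594 and 573 carried the third and the fourth ending and 9 to 23 each of the others. Under these same endings microglia-like cells had 24650 and 27470 CPM of Apoe, against 636.7 to 925.7 CPM under the others, so class and source cannot be told apart in pooled sums. Ratios to the P2ry12-led class are descriptions with counting error only, since cells are not replicates.

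In Spp1-led microglia, 7 of 33 members at 10 CPM or more in either class were at least 1.5-fold higher and 2 at least 1.5-fold lower, against 7.75% and 40.8% of all genes. Of the 7, Gla and Galns reached 10 CPM only in the Spp1-led class, so they were counted through the class where they are high. The same floor was used for all genes. The median log2 ratio of the members was 0.02, against -0.45 over all genes. Gla (chrX:134588149-134601125), the alpha-galactosidase that removes terminal galactose from globotriaosylceramide, had the largest ratio, at 40.7 CPM against 3.64 CPM (ratio 11.2, 95% interval 9.44 to 13.3). Under the endings with at least 20 cells of each class its ratio was 6.99 to 12.0, higher in 3 of 3. By ending, Spp1-led cells had 0, 44.7, 44.9, 36.6 and 26.7 CPM of Gla, the 0 from 9 cells, and P2ry12-led cells 3.76, 3.41, 3.72, 3.35 and 3.81 CPM. Gla was therefore near 1 level in P2ry12-led cells whatever the ending.

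Npc2 was at 1692 CPM in Spp1-led against 870.9 CPM in P2ry12-led cells (ratio 1.94, 95% interval 1.91 to 1.97), higher under 3 of 3 endings. Cd68 was at 1044 against 630 CPM (1.66), also under 3 of 3. Of the V-ATPase, Atp6v1a, the catalytic A subunit, was at 136.6 against 68.8 CPM (1.99, 95% interval 1.88 to 2.10, higher under 2 of 3 endings and 0.81 under the other), and Atp6v0e at 372.7 against 232.5 CPM (1.60, higher under 3 of 3). Glb1 was at 68.05 against 43.54 CPM (1.56, higher under 2 of 3 endings and 0.75 under the other) and Galns at 10.9 against 6.30 CPM (1.73, higher under 2 of 3 and 0.92 under the other). Of the members at 10 CPM or more, the lower ones were the 2 most abundant, Lgmn at 1733 against 3093 CPM (0.56) and Laptm5 at 1390 against 2262 CPM (0.61). Under 10 CPM in both classes, Sgsh was at 2.21 against 8.95 CPM (0.25, 95% interval 0.168 to 0.353, higher under 0 of 3 endings). Atp6v0c, also under 10 CPM, was at 7.31 against 4.62 CPM (1.58, higher under 3 of 3). Psap (1.21), Lamp1 (1.26) and Grn (1.08) were inside the 1.5-fold bounds. Border macrophage markers summed to 99.3 CPM in Spp1-led and 6.13 CPM in P2ry12-led cells, the median depth was 11856.5 UMIs in Spp1-led cells, and the part of both was not tested.

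In Rxrg-led microglia, Npc2 alone was past 1.5-fold of the 31 members at 10 CPM or more in either class, at 1313 CPM (ratio 1.51, and 1.34 to 1.57 under 4 of 4 endings), and 0 were lower, against 3.27% and 11.1% of all genes. The ratio of Cd68 was 1.04 in pooled sums and 1.11 to 1.35 within each of the 4 endings, so the pooled value lies below all of them. Laptm5 and Lgmn were lower under 4 of 4 endings, at 0.81 and 0.88 in pooled sums. Within the endings Laptm5 was at 0.83 to 0.96, so its pooled value also lies below all of them. Npc1 and Atp6v1h, both at 0.79 in pooled sums, were lower under 4 of 4 endings too. Other members, such as Psap (1.125), were higher under 4 of 4. In Ifit2-led microglia, 0 of 31 members at 10 CPM or more were past 1.5-fold in either direction, against 5.38% and 7.61% of all genes, and Npc2 (1.40) and Grn (1.26) were highest among them. Gla was under 10 CPM in both classes, with a ratio of 1.66 (95% interval 1.30 to 2.11) in Rxrg-led cells, higher under 3 of 4 endings, and 2.73 (95% interval 1.85 to 3.93) in Ifit2-led cells, higher under 3 of 3. Sgsh, also under 10 CPM, was at 0.65 in Rxrg-led and 0.62 in Ifit2-led cells.

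**Figure D4:**
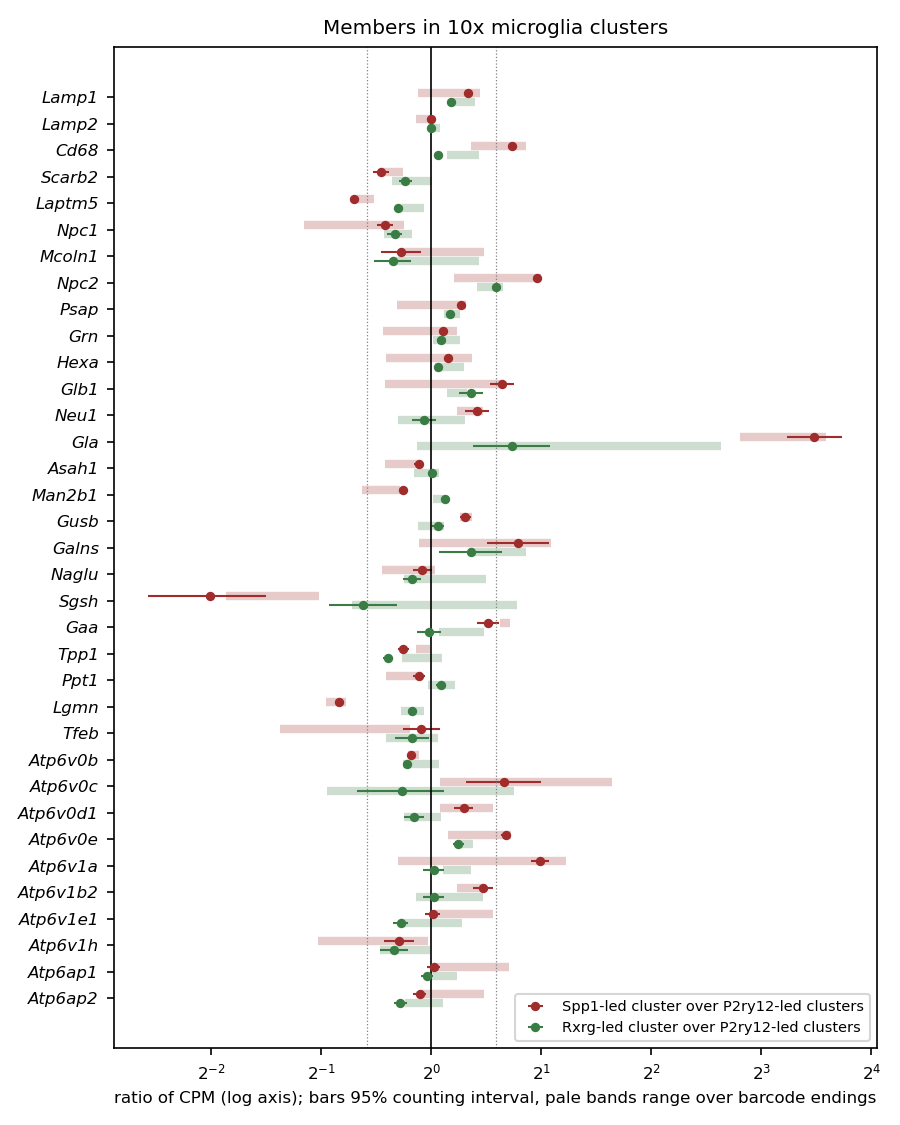
Ratio of the level in Spp1-led and Rxrg-led microglia to that in P2ry12-led microglia for each member, on a log axis, with bars for the 95% counting interval, pale bands for the range over barcode endings and dotted lines at 1.5-fold. Gla stands farthest right among Spp1-led values at 11.2 and Sgsh farthest left at 0.25, and Lgmn and Laptm5 lie left of 1 in both classes.

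The ApoeKO 10x data gave 1103 microglia-like cells under 2 column starts, which the labels do not tie to a sample. Apoe was at 5.3 CPM under the first start and 6715 CPM under the second, the latter against the ApoeKO label. A cluster of 244 cells led by Cd74, Ccl3 and Ccl4, with Lpl and Spp1 also among its leading genes, was set against the clusters with P2ry12 among theirs. It is not the same class as the Spp1-led cells of the aged data, and its highest marker score was for neutrophils. Here 4 of 33 members were at least 1.5-fold higher and 0 lower, against 8.36% and 17.4% of all genes. Of the 4, Gla and Galns again reached 10 CPM only in the class where they are high. Gla was at 21.5 against 3.58 CPM (ratio 6.0, 95% interval 2.85 to 13.5), and 4.45 to 7.24 within the 2 starts. Neu1, a sialidase, had a ratio of 1.93 (95% interval 1.41 to 2.64), Galns of 1.91 and Atp6v1a of 1.73 (95% interval 1.37 to 2.19). The Galns value rests on 13 against 18 UMIs, with an interval of 0.859 to 4.12 that includes 1. Neutrophil markers summed to 14640 CPM in this Cd74-led cluster and 5.9 CPM in the P2ry12 clusters, and their part in these ratios was not tested.

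Over 12 cell classes of the aged 10x data, microglia-like cells had the highest level of 9 members, Gusb, Laptm5, Lgmn, Man2b1, Mcoln1, Naglu, Npc2, Ppt1 and Tpp1. Laptm5 was at 1969 CPM in microglia-like and 1314 CPM in border macrophage-like cells, and Lgmn at 2715 and 1705 CPM. Cd68 was second, at 694.3 against 777.5 CPM in border macrophage-like cells. The V1 subunits had another order: Atp6v1a ranked 10 of 12 in microglia-like cells, at 81.04 CPM against 342.5 CPM in neuron-like cells, and Atp6v1e1 ranked 9, at 141.3 against 759.2 CPM in choroid plexus-like cells. Free RNA in droplets can add low counts to every class, and its part was not tested.

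**Figure D5:**
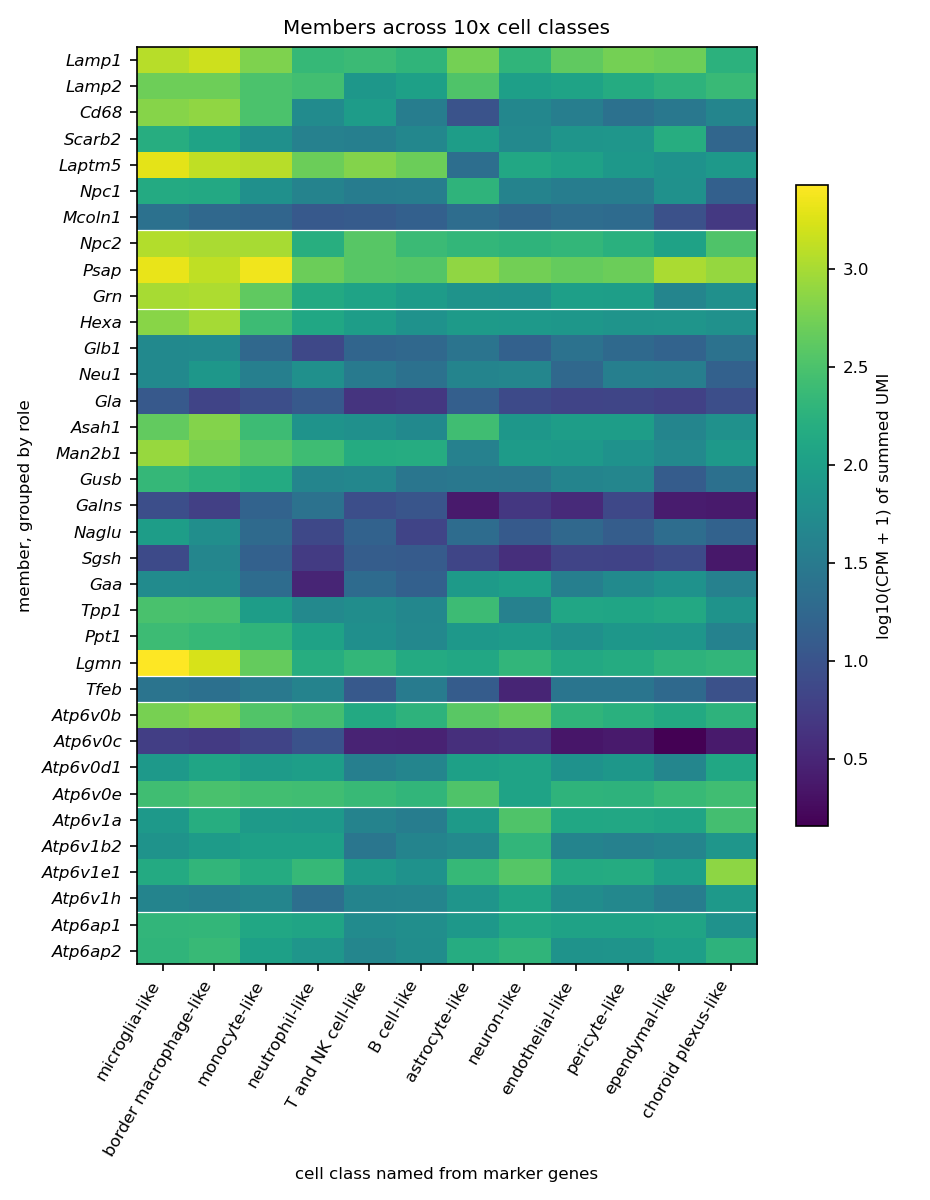
Level of each member in 12 cell classes of the aged 10x data, as log10(CPM + 1). Brighter colours are higher levels: Lgmn, Laptm5 and Cd68 are bright in microglia-like and border macrophage-like columns, and the rows of the V1 subunits Atp6v1a and Atp6v1e1 are brightest outside them.

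Other lysosome genes were counted from lists by function. In WT white against grey matter, 8 of 10 tested cathepsins had positive changes with a median log2 of 0.41, and 1, Ctsh, rose (log2 1.07, 2.10-fold, edgeR adjusted p = 0.0137). Of 24 other hydrolases and activators, 15 were positive, and Lyz2, lysozyme, rose 6.50-fold (log2 2.70, edgeR adjusted p = 0.00185). Of 23 other membrane proteins (13 positive), 8 other V-ATPase subunits (3), 15 MiT/TFE and mTORC1 genes (10) and 16 autophagy genes (8), 0 were called. At an unadjusted p under 0.05, 9 genes of the 6 lists were higher and 1 lower in WT white matter, against 3.25% and 1.85% of all genes, and DESeq2 called 2. In the other 5 comparisons edgeR called 0 genes of these lists. Unadjusted p was under 0.05 for 4 higher genes in Trem2ko tissues, 4 lower in the difference, 1 lower in white matter, 1 higher in grey matter and 3 higher in 5xFAD. Over all genes, the shares in the same order and direction were 1.36%, 1.49%, 1.56%, 1.34% and 1.82%. DESeq2 called Lyz2 lower in Trem2ko white matter (log2 -2.08, adjusted p = 0.0289), where its level was 1106 ± 233 CPM (SD, n = 5) against 4468 ± 3815 CPM in WT (n = 6), and Map1lc3a and Tpcn2 higher in 5xFAD. In Spp1-led microglia, the cathepsins Ctsb, Ctsd, Ctsl and Ctsz were at least 1.5-fold higher and Ctsf and Ctso lower, of 10. Of 22 other membrane proteins, Cd63 and Slc11a1 were higher and 7 lower, and of 8 other V-ATPase subunits Atp6v0d2, a myeloid V0 subunit, and Atp6v1f were higher and Atp6v0a2 lower. Of 25 other hydrolases and activators, 4 were higher and 5 lower. The 15 MiT/TFE and mTORC1 genes had 2 higher and 2 lower, and the 16 autophagy genes 4 and 4. Over all genes in this class, 7.75% were higher and 40.8% lower.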

How the data were processed

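The 35 members and the other gene lists were chosen with earlier results of these data known. The authors deposited counts: reads by gene for each Smart-seq2 cell and UMIs by gene for each 10x barcode, not normalized, as their whole-number values show. Cell Ranger 4, Trim Galore, FastQC, bcl2fastq and mm10 are named by the submitters' processing notes, while for Smart-seq2 the aligner and counter are not given in the sources used here. Since the aged table joins parts with different symbols, 46 renamed pairs were joined, 4491 genes with reads in 1 part only (0.147% of reads) and 243 with none were left out, and 13301 were kept.

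Reads were summed per animal and tissue with at least 5 cells, which left out A13 (28 months, labelled Trem2ko) and A187 (5 months, 5xFAD). In A5, 2 wells listed more than once were averaged, and 1 library listed for both A8 and A9 was left out of both. A single fit of 22 libraries, blocked by animal, gave the tissue effects and their difference, and separate fits compared genotypes in white matter, grey matter and prefrontal cortex. The pairing comes from animal names in the labels. Tissues of 1 animal correlated in their deviations by 0.0196 to 0.127, and 7 of 11 animals matched their own other tissue best. edgeR 4.0.16 quasi-likelihood tests (robust, TMM, filterByExpr) were adjusted by Benjamini-Hochberg over all genes at 0.05, with DESeq2 1.42.0 and limma 3.58.1 as alternatives. The SE of a fold change is its size over the square root of F, an approximation that is unstable near 0. R 4.3.3 and Python 3.11.15 were used. Scripts were tested on simulated data. With 2-fold changes put in, 2.08% were called in WT tissues and 0% in white matter, grey matter and 5xFAD. With 16-fold changes these shares were 40%, 47.8%, 64.3% and 20.8%. A member that was not called was therefore not shown to be unchanged.

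In 10x data, cells with at least 200 genes, 500 UMIs and at most 20% mitochondrial counts were kept. They were clustered on 2000 variable genes and 30 components, without members and cathepsins, with leidenalg 0.10.2 at resolution 1.0. A cluster was microglia-like only if at least 10 of 12 markers were each detected in at least 25% of its cells, a rule set after seeing the data. Its leading genes could also hold no more markers of any other type than of microglia. Its median UMI count had to pass a floor relative to that of all cells. No doublet caller was run, and 2918 cells of the aged table stayed unnamed. In the ApoeKO table, 11224 columns that no label ties to the series' samples were not used. Intervals of 95% are exact and, like floors, cover counting error only.

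For each comparison the members given in full were the 4 with the smallest p, and further members, and genes of other lists in 10x data, were chosen after their values were seen. Gene positions are those of GENCODE vM21 (GRCm38) and promoter letters those of RefSeq (GRCm38.p6), which matched 30 of 35 members. The alternatives covered scaling, tool, filters, cells used, plates, labelled sex, pairing, each left-out animal, cluster resolution and depth.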

Additional observations from a re-analysis of the deposited data

Results flagged for a closer look

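Of 44 groups of 4 to 10 animals tested for the named members, 2 held a value far from the others, and chance sets apart about 1 group in 20. Naglu in Trem2ko white matter was at 552.9 CPM in A9, with the next animal at 303.7 CPM and the lowest at 202.5 CPM (n = 5). Atp6v1e1 in WT grey matter was at 255.1 CPM in A5, with the next animal at 85.63 CPM and the lowest at 62.48 CPM (n = 6).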

How the results depend on the processing

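No member was called by edgeR or limma under any alternative of the 6 Smart-seq2 comparisons, and DESeq2 called 3 in WT tissues (Glb1, Atp6v1b2 and Galns) and 0 elsewhere. The number of all genes called in WT tissues was 4 with edgeR, 289 with DESeq2, 13 with limma on per-cell CPM, 11 without cells carrying markers of another type and 10 without the block. With 1 animal left out, the number of members called stayed at 0, and the median log2 change of the members ranged from 0.11 to 0.35 in WT tissues, 0.02 to 0.15 in Trem2ko tissues, -0.29 to -0.10 for their difference, -0.20 to -0.02 in white matter, 0.07 to 0.15 in grey matter and 0.33 to 0.64 in 5xFAD, while that of all genes ranged from -0.008 to 0.16, -0.04 to 0.0056, -0.19 to 0.0017, 0.05 to 0.11, 0.06 to 0.12 and 0.03 to 0.81. The members passed to the other side of all genes without A3 in WT tissues, without A4, A8 or A11 for the difference, without A173 in 5xFAD, and in grey matter without A2, A3, A5, A7 or A8 and with RLE scaling, DESeq2 and limma on per-cell CPM, and in white matter with no minimum of cells. Without the replicate block, 0 members were called, the medians were 0.12, 0.09 and -0.18, and the log2 changes in WT were 2.00 for Glb1 (edgeR adjusted p = 0.298) and 1.14 for Atp6v1b2 (0.512). No call of a member changed with the pairing. With no minimum of cells, which adds libraries of fewer than 5 cells, the median was 0.23 in white and 0.44 in grey matter, and signs turned for Man2b1 in white (0.28) and Psap in grey matter (1.23, edgeR adjusted p = 0.82). The grey median was also 0.22 with no filter on low counts and 0.22 with limma on per-cell CPM. Scaling by library size only moved the median of all genes from 0.11 to -0.01 in WT tissues, 0.08 to 0.19 in white matter and 0.13 to -0.03 in 5xFAD. The cause of these shifts was not tested.

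In 10x data, at resolution 0.5 the Spp1-led class held 3188 cells, with 2 members higher and 0 lower. No Rxrg-led cluster was formed there. Spp1-led counts were 7 and 2 with the third and the fourth ending only, an alternative chosen after seeing the data, and 5 and 2 with cells thinned to 2000 UMIs. For Ifit2-led microglia, 3 members were higher and 1 lower with those 2 endings, 1 higher at resolution 0.5, and 1 lower after thinning. The share of all genes past 1.5-fold was not counted in these alternatives, so their member counts are descriptions only. The median level of the members at postnatal day 14 was 319.1 CPM as a mean over cells. Fitting each genotype alone gives no value for the difference of tissue effects. Gla had no read in 2 of 6 WT white matter libraries, and its fitted change rests on few reads.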

Other observations

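Atp6v0c was at 113.7 ± 41.5 CPM in WT grey matter by Smart-seq2 (SD, n = 6) and at 3.54 to 5.75 CPM over the 5 barcode endings of 10x microglia. Lamp2 went the other way, at 179.4 ± 65.3 CPM in WT grey matter by Smart-seq2 and 506.3 CPM in 10x microglia-like cells. The methods count different parts of a transcript and were run on different animals, and these differences were not tested.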
